A study of Mus musculus with 14 samples.

Results

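Insulin-like growth factor (IGF) genes were examined in MyoD and MyoG ChIP-seq peak lists from quiescent and activated muscle stem cells (QSCs and ASCs) of the mouse. The 10 genes were taken by name, with earlier results of these data known. They were the ligands Igf1 and Igf2, the receptors Igf1r and Igf2r, the binding proteins Igfbp2, Igfbp3, Igfbp4 and Igfbp5, and the receptor adaptors Irs1 and Irs2. Every peak that carried one of these gene names in the 12 lists was taken, and a gene without such a peak was counted as not bound. Of 10303 peaks at 4384 named genes, 6 peaks at 4 of the 10 genes met the rule.

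All mice were labelled wild-type and carried a mito-Dendra2 allele, which encodes a fluorescent mitochondrial protein, under a Pax7-Cre(ERT2) driver. This driver switches on in the muscle stem cell lineage, so that stem cells and their progeny are both marked. Tamoxifen was given at 75 mg/kg on 5 days, and the tibialis anterior muscle then received 50 uL of 1.2% BaCl2 to injure it, while the muscle of the other leg received saline. At 2 days after injury, QSCs were sorted from saline-injected muscle as CD34+ cells and ASCs from injured muscle as CD34- cells, both Dendra2+ and DAPI-. The animals' ages are not given in the sources used here. Both antibodies were used in both states, giving 4 groups with 3 ChIP libraries each, and 2 input libraries were not analysed here. The lists measure DNA bound in the precipitate and hold no transcript levels, so the sorted cell types could not be checked against expressed markers.

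IGF1 and IGF2 are secreted ligands that activate the receptor tyrosine kinase IGF1R, and phosphorylated IRS adaptors then couple it to PI3 kinase, Akt and mTOR. IGF2R carries IGF2 to lysosomes for breakdown, and the binding proteins hold the ligands in the extracellular fluid and set how much reaches the receptor. In muscle the pathway is known for driving myoblast proliferation, differentiation and fiber growth. MyoD and MyoG are basic helix-loop-helix factors of the muscle lineage that bind E-boxes, short DNA motifs with the letters CANNTG.

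No peak overlapped the 250 bases before any of the 14 start sites that the RefSeq windows give for the 10 genes. The RefSeq spans of Igf1, Igfbp3 and Igfbp4 begin farther upstream than the start site used, and the sequence before those ends was not examined. CANNTG, whose reverse complement is again CANNTG, was present in 10 of these 14 windows, and in 66.2% of all 32851 RefSeq windows of this length. The letters CAGCTG, a subset of CANNTG, were present in 1 of 14 windows, that of Igf1, and in 13.0% of all windows. The 3 windows shown are those of Igfbp5, Igf2r and Igf1. Igfbp5 was the gene with replicated MyoD peaks, and Igf2r had the highest-scoring MyoD region inside any of the 10 genes. The Igf1 window held CAGCTG, but the gene had no peak. The windows are printed 5' to 3' on the gene's strand from RefSeq, build GRCm38.p6. E-boxes are in capitals, and the last base is the one before the start site.
Igfbp5, chr1:72874866-72875115, minus strand: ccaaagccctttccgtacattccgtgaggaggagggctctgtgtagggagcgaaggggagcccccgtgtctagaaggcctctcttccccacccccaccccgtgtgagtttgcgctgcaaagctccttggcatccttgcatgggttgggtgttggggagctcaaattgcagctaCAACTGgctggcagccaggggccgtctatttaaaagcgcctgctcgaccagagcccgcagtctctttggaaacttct
Igf2r, chr17:12769707-12769956, minus strand: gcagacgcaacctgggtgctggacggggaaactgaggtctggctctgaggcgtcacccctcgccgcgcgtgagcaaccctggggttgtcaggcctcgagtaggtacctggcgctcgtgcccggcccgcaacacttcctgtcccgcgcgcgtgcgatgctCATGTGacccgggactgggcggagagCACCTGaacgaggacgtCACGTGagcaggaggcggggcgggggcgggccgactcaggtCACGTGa
Igf1, chr10:87860861-87861110, plus strand: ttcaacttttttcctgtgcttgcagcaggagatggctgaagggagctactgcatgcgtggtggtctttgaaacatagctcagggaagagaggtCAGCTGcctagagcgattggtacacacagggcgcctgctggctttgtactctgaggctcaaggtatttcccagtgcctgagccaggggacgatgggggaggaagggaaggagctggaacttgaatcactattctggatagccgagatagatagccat
Igfbp5 held 1 E-box, CAACTG, beginning 77 bases before the start site. Igf2r held 4, and the CAGCTG of Igf1 began 157 bases before its start site. A match to these letters is a description of the sequence, and whether any of them is bound was not tested.

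The 6 peaks were all in ASC MyoD libraries, with 2 in each of the 3 libraries. The ASC MyoD lists held 2652, 2262 and 2296 peaks, whereas the QSC MyoD lists held 139 to 174, the ASC MyoG lists 605 to 916 and the QSC MyoG lists 120 to 167. Depth is unknown because the lists hold no read counts, and its part in these differences in list length was not tested. The score of a peak is minus 10 times the log10 of its MACS p-value, and the lowest score listed was 50.0. Overlapping peaks were merged into regions, and regions seen in 2 or 3 libraries of the same group are termed consensus regions.

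A consensus region of ASC MyoD was named for 1 of the 10 genes, Igfbp5. Among all RefSeq protein-coding genes, 5.95% were named for such a region, and among all genes in the 12 lists the share was 37.0%, beside 1 of the 4 IGF genes listed. Counting a peak in any ASC MyoD library, 4 of 10 IGF genes were named (Igf1r, Igfbp5, Irs1 and Irs2), beside 10.7% of protein-coding genes. No peak in any ASC MyoG, QSC MyoD or QSC MyoG library was named for an IGF gene. Consensus regions of those groups were named for 0.201%, 0.0594% and 0.0183% of protein-coding genes. Shares this low leave nothing to be read from 0 of 10 genes with a consensus region. The share of all genes with a peak in any library of those groups was not computed, so the absence of single peaks is not read either. The ASC MyoD count of 1 of 10 is close to the general share, and nothing particular to IGF genes is read from it.

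**Figure D1:**
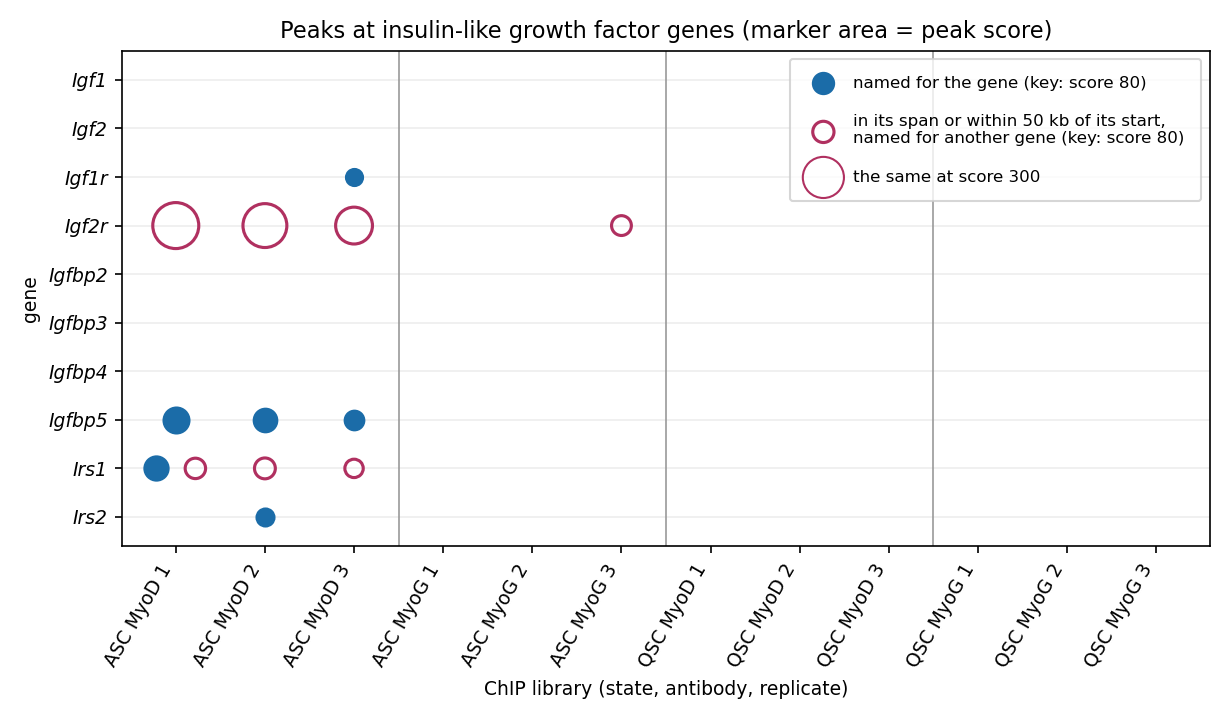
Peaks at the 10 IGF genes (rows) in the 12 ChIP libraries (columns), where the area of a marker is proportional to the peak score. Filled markers are peaks named for the gene, and open markers are peaks named for another gene that lie in the gene's span or within 50 kb of its start site. Filled markers occur only in the ASC MyoD columns, and Igfbp5 alone is filled in all 3.

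Neither ligand gene had a peak of its own. Igf1 had no peak in any of the 12 libraries, and the only regions within 300 kb were 2 peaks of ASC MyoD replicate 3, with scores of 53.16 and 55.18. They lay 196.3 and 217.4 kb downstream of the nearest Igf1 start site and were named for Pmch, which encodes a hypothalamic neuropeptide precursor. Replicates 1 and 2 had no peak there, so Igf1 had no consensus region within 300 kb on either side.

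Igf2, a fetal growth ligand expressed from the paternal allele, also had no peak in its name. A consensus region at chr7:142600014-142601599 (1586 bp), annotated as distal intergenic, lay between Igf2 and H19, the imprinted noncoding RNA gene that is expressed from the maternal allele. Its center was 56.7 kb downstream of the nearest Igf2 start site, and its edge was 49.2 kb from the Igf2 gene and 21.9 kb from H19, for which it was named. Its scores were 191.88, 253.24 and 64.78 in ASC MyoD replicates 1 to 3 (mean 170.0 ± 96.1, SD, n = 3), and the 9 other libraries had no peak there. Replicates 1 and 2 placed it at the 93.3 and 97.7 percentiles of their own lists, and replicate 3 at 42.9, so the region was high in 2 libraries and middling in the other.

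Farther along the same chromosome, an intronic region of the noncoding gene Nctc1 at chr7:142550534-142551786 scored 393.06, 195.43 and 196.37 (mean 262.0 ± 114, SD, n = 3), with its center 106.3 kb from the nearest Igf2 start site. It stood at the 94.7 percentile or higher in each ASC MyoD list. The next consensus region was at the promoter of Tnnt3, a fast skeletal troponin gene, 157.3 kb away, with scores of 64.48 in replicate 1 and 62.92 in replicate 3 and no peak in replicate 2. The other 2 regions in this flank were seen in replicate 3 only. One was at the promoter of Lsp1, which encodes a leukocyte protein (score 51.83, 194.9 kb), and the other at the promoter of Tnni2, another fast troponin gene (score 70.7, 215.3 kb).

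Of the receptors, Igf1r was named in 1 library and Igf2r in none. Igf1r encodes the tyrosine kinase receptor of both ligands. Its peak at chr7:68193926-68194936 (1011 bp), in intron 11 of 20 and 242.2 kb downstream of the start site, was listed in ASC MyoD replicate 3 with a score of 51.7. The other 11 libraries had no peak there. It ranked 2112 of 2296 by score, at the 8.04 percentile of its list, close to the lowest score listed. Of the 200 peaks of that list nearest to it in score, 87 (43.5%) overlapped a peak of another ASC MyoD library, so absence from the other libraries was the more frequent outcome at this score.

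Igf2r, the receptor that clears IGF2, had the highest-scoring region of any IGF gene, but under another name. The region at chr17:12759289-12760572 (1284 bp) lay inside the Igf2r gene, 9.8 kb downstream of its start site, and was annotated as an intron of Airn, the noncoding RNA transcribed antisense to Igf2r from within it. Scores were 374.74, 341.31 and 240.52 in ASC MyoD replicates 1 to 3 (mean 319.0 ± 69.9, SD, n = 3). These stood at the 98.9, 99.2 and 97.8 percentiles of their lists, and the peaks shared 1090 bp. It was also the only region within 300 kb of an IGF gene with an ASC MyoG peak, at a score of 69.6 in ASC MyoG replicate 3 (71.5 percentile). ASC MyoG replicates 1 and 2 and the 6 QSC libraries listed no peak there. Because Igf2r and Airn overlap on opposite strands, the position alone cannot assign the region to either gene.

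Counted by position instead of by name, 1 of 10 IGF genes (Igf2r) had an ASC MyoD consensus region inside its span, beside 4.64% of protein-coding genes. Within 50 kb of a start site the count was 3 of 10 (Igf2r, Igfbp5 and Irs1), beside 10.1% of protein-coding genes with a start site in the reference. Within 100 kb it was 6 of 10 (with Igf2, Igfbp2 and Igfbp3 added), beside 18.7%, and within 300 kb of the gene span it was 8 of 10 (all but Igf1 and Igf1r), beside 43.6% of protein-coding genes. Igfbp2 and Igfbp5 share the region named for Igfbp5 within 100 kb, and within 300 kb all their regions are the same. They are therefore not separate entries in these 2 counts. These alternatives were chosen after the data had been seen, and the share for IGF genes was not tested against that for all genes. A further Airn peak, at chr17:12846259-12847103 and 77.0 kb upstream of Igf2r, was listed in ASC MyoD replicate 2 with a score of 61.52. A peak in an exon of Acat2, which encodes an acetyl-CoA acetyltransferase, was listed in replicate 3 with a score of 51.97, at 182.6 kb.

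**Figure D2:**
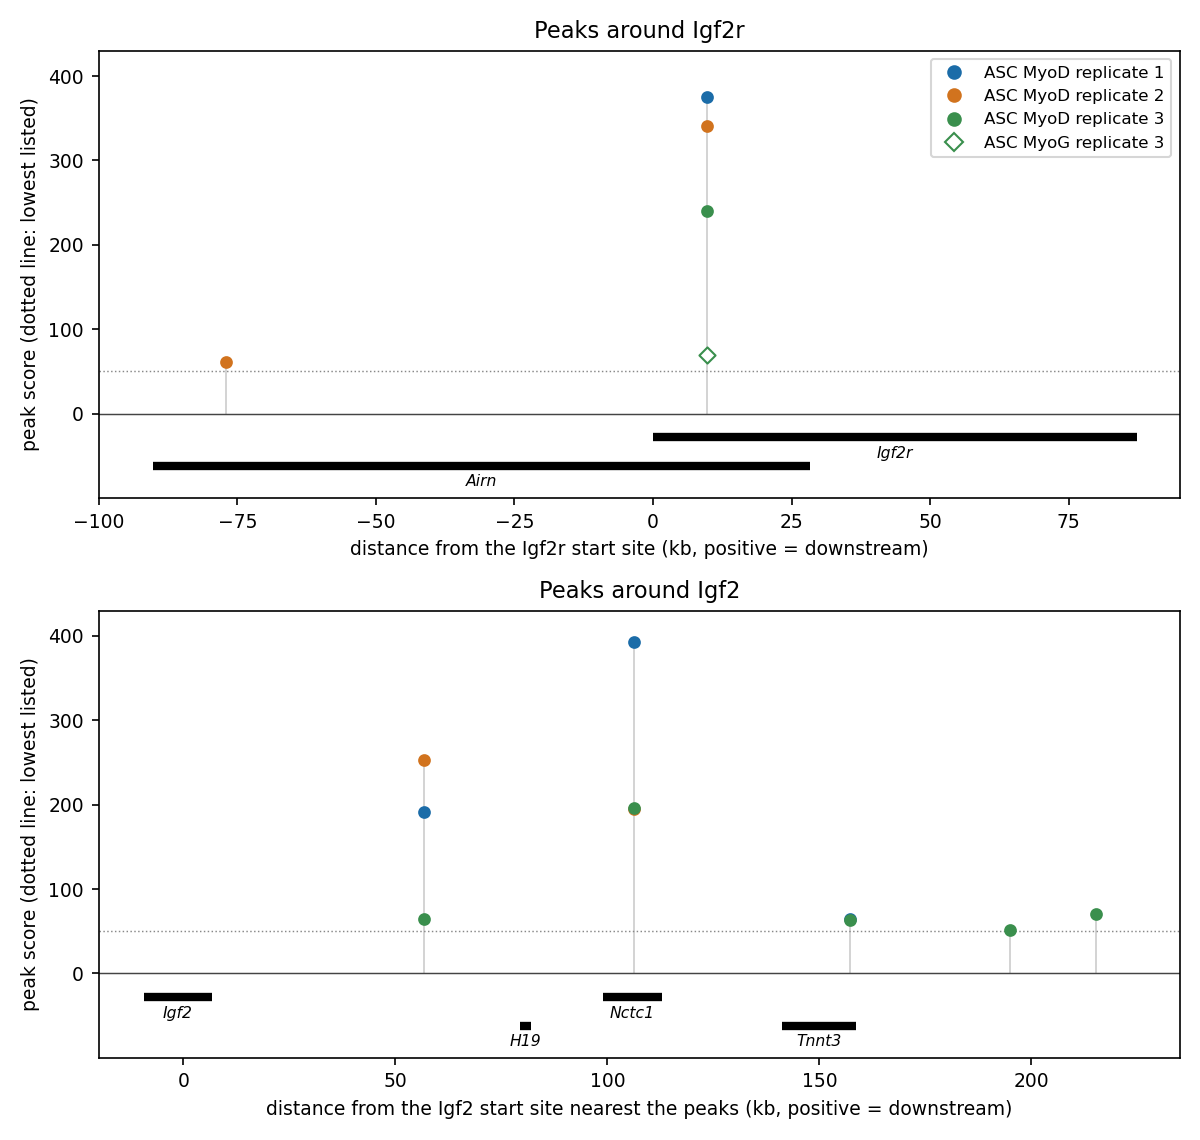
Peak scores by distance in kb from the start site of Igf2r (top) and from the nearest Igf2 start site (bottom), with positive distances downstream. Colors are the 3 ASC MyoD libraries, the open diamond is ASC MyoG replicate 3, and black bars are RefSeq genes. The region inside Igf2r scores 240.52 to 374.74 with MyoD and 69.6 with MyoG, and the peaks beside Igf2 lie downstream of the gene and none within it.

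Among the 4 binding protein genes, Igfbp5 was the only one named, and it was the only IGF gene named in every ASC MyoD library. Igfbp5 encodes a binding protein whose expression rises as cultured myoblasts differentiate. Its region at chr1:72906712-72907713 (1002 bp) was distal intergenic, 32.3 kb upstream of the start site and 31.8 kb from the gene. Scores were 119.45, 98.74 and 68.47 in ASC MyoD replicates 1 to 3 (mean 95.6 ± 25.6, SD, n = 3), and the 9 other libraries had no peak there. The peaks were 658, 1002 and 782 bp wide, and 658 bp were common to all 3. They stood at the 80.4, 74.1 and 49.5 percentiles of their lists, so the region was in the upper part of 2 lists and in the middle of the other.

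The number of MyoD peaks at Igfbp5 was 1 in each ASC library and 0 in each QSC library. The difference of 1 peak per library had an exact two-sided permutation p-value of 0.1, the smallest that 3 libraries against 3 can give, so no gene could pass 0.05. Groups separated this completely, with more MyoD peaks in every ASC than in every QSC library, at 3.78% of protein-coding genes and at 1 of 10 IGF genes. Only the 4 IGF genes with a MyoD peak were tested, and the permutation p-value of Igfbp5 adjusted for these 4 tests was 0.4. Peaks as high as those of Igfbp5 were mostly replicated. Of the 200 peaks nearest in score within each list, 94.0%, 89.0% and 70.0% overlapped a peak of another ASC MyoD library.

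Igfbp5 and Igfbp2 are neighbors on chromosome 1, and upstream of Igfbp5 lay 5 further ASC MyoD regions, 4 of them before Tnp1 and 1 beyond it. All 5 were named for Tnp1, which encodes a transition protein of sperm chromatin. The highest, chr1:72951183-72952516, scored 303.55, 223.89 and 144.51 (mean 224.0 ± 79.5, SD, n = 3) and stood at the 98.0, 96.6 and 89.4 percentiles. It lay 77.0 kb upstream of the Igfbp5 start site and 62.6 kb from Tnp1, so it lay far from both genes and somewhat nearer to Tnp1. In each of the 3 libraries this region scored higher than the one named for Igfbp5.

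The other regions upstream had lower mean scores or peaks in fewer libraries. The region at 94.8 kb scored 175.59, 56.47 and 81.08 (mean 104.0 ± 62.9, SD, n = 3), and the one at 180.4 kb, beyond Tnp1, scored 56.4, 96.66 and 89.49 (mean 80.9 ± 21.5, SD, n = 3). The region at 91.7 kb had peaks in replicates 1 and 2 only, with scores of 92.67 and 64.38, and that at 85.6 kb in replicate 2 only, with 65.24. In all, 5 of the 6 regions upstream of Igfbp5 within 300 kb were consensus regions, and 4 had a peak in all 3 ASC MyoD libraries. None had a MyoG or a QSC peak. Over the whole series, consensus regions numbered 1985 for ASC MyoD, 221 for ASC MyoG, 42 for QSC MyoD and 10 for QSC MyoG. The share of all ASC MyoD regions without a MyoG or QSC peak was not computed, so nothing particular to Igfbp5 is read from this.

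**Figure D3:**
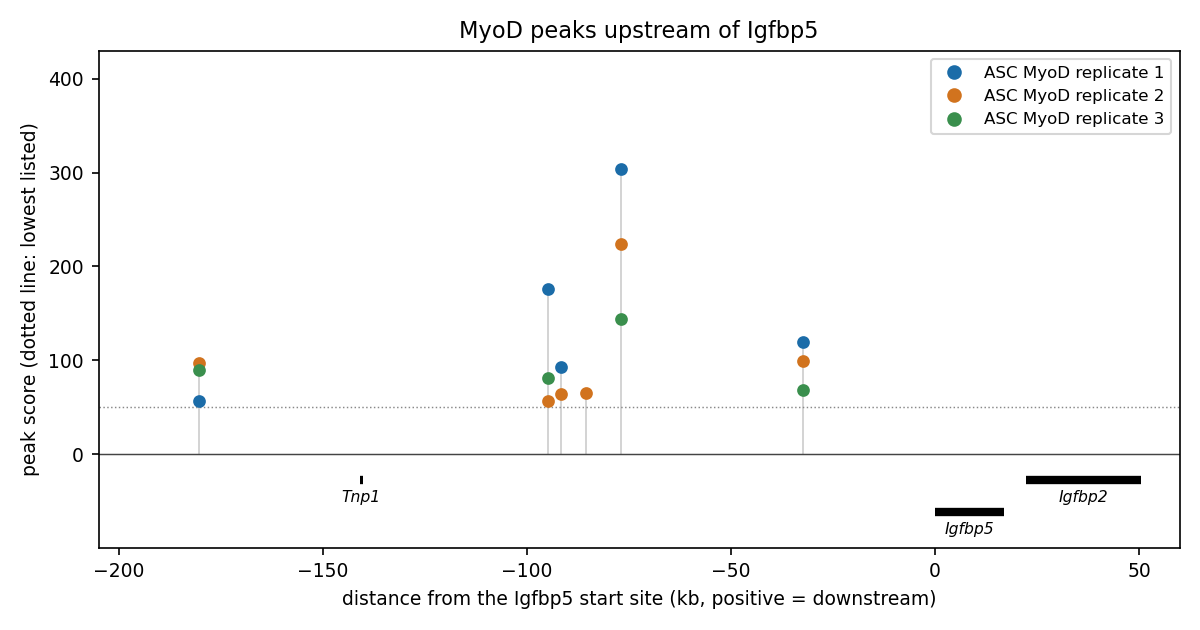
Peak scores of the 3 ASC MyoD libraries by distance in kb from the Igfbp5 start site, with negative distances upstream and black bars for RefSeq genes. The region named for Igfbp5 stands 32.3 kb upstream with scores of 68.47 to 119.45, and the higher region 77.0 kb upstream, named for Tnp1, reaches 303.55.

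The other 3 binding protein genes had no peak of their own. For Igfbp2, which binds IGF2 with some preference, the nearest consensus region was that of Igfbp5, 81.8 kb downstream of an Igfbp2 start site. For Igfbp3, the main carrier of IGFs in serum, the nearest was an intronic region of the predicted gene Gm11986 68.5 kb upstream, with scores of 60.6 and 53.91 in ASC MyoD replicates 1 and 2 and no peak in replicate 3. A higher-scoring distal region of Gm11986, chr11:7408652-7409725 and 195.3 kb upstream of Igfbp3, scored 206.58, 110.74 and 169.43 (mean 162.0 ± 48.3, SD, n = 3). For Igfbp4, a binding protein that inhibits IGF action, the nearest consensus region was 201.1 kb upstream, at the promoter of Rapgefl1, with scores of 70.0 and 64.02 in replicates 1 and 2.

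Both receptor adaptors were named in 1 library each, and the libraries differed. Irs1 had a peak at chr1:82257228-82258154 (927 bp), in its only intron and 33.7 kb downstream of the start site. It was listed in ASC MyoD replicate 1 with a score of 103.98, rank 689 of 2652 (74.0 percentile), and the other 11 libraries had no peak there. Of the 200 peaks of that list nearest in score, 170 (85.0%) overlapped a peak of another ASC MyoD library, so the Irs1 peak was in the minority of its height that did not.

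Near Irs1, a region with lower scores was present in all 3 ASC MyoD libraries. It lay at chr1:82320076-82321083, 29.1 kb upstream of the Irs1 start site, in an intron of Rhbdd1, a rhomboid protease gene that is transcribed away from Irs1. Scores were 73.83, 77.08 and 59.84 (mean 70.2 ± 9.16, SD, n = 3), at the 48.4, 55.9 and 32.5 percentiles. The named Irs1 peak thus scored higher than this neighbor in replicate 1, while only the neighbor was listed in replicates 2 and 3.

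Irs2 had a peak at chr8:10961975-10962737 (763 bp), annotated as distal intergenic, 46.6 kb downstream of the start site and 21.9 kb beyond the end of the gene. It was listed in ASC MyoD replicate 2 with a score of 57.37, rank 1733 of 2262 (23.4 percentile). The other 11 libraries had no peak there, and 99 (49.5%) of the 200 peaks nearest in score were replicated. The closest consensus region lay 136.5 kb upstream, was named for the predicted gene Gm15418, and scored 56.46 and 97.07 in replicates 1 and 2. For Irs1, Irs2 and Igf1r alike, the mean number of MyoD peaks was 0.333 ± 0.577 (SD, n = 3) in ASCs and 0 in QSCs. A single peak in 1 library always gives these values and an exact two-sided permutation p-value of 1.0. The test therefore could not decide whether the states differ at these genes.

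**Figure D4:**
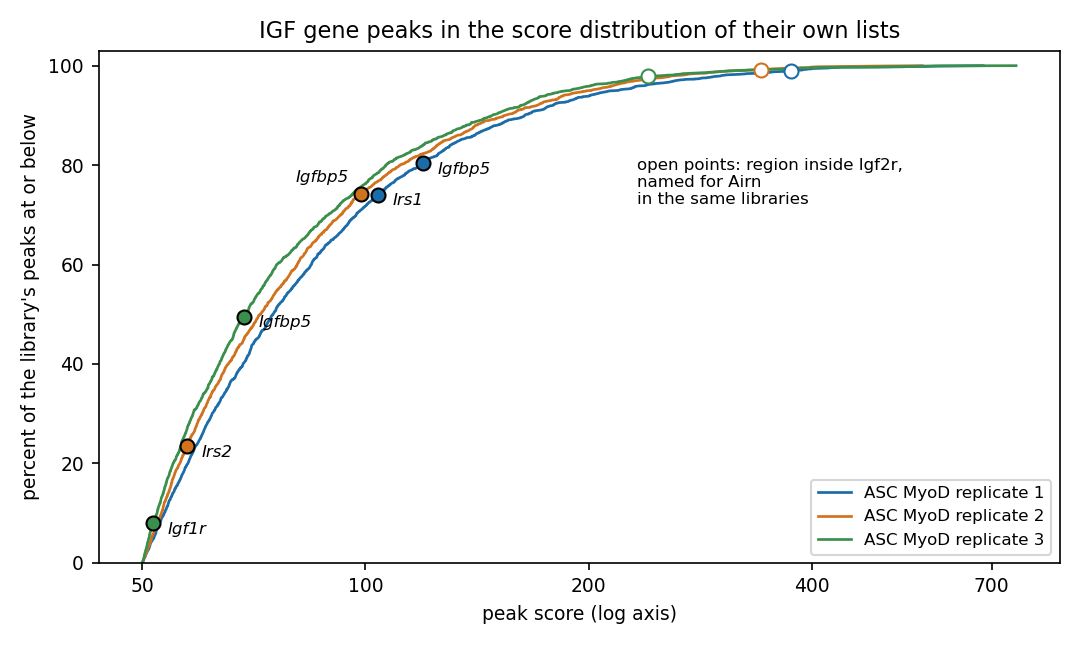
Percent of the peaks of each ASC MyoD list at or below a score (lines, log axis), with the 6 IGF gene peaks as filled points and the region inside Igf2r as open points, colored by library. The filled points run from Igf1r at the 8.04 percentile to Igfbp5 in replicate 1 at 80.4, and the open points sit at 97.8 or higher.

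In the lists, peaks carry running numbers in order of position, some of which are skipped, so that peaks had been numbered that are not in the lists. At the 3 regions found in 1 library (Igf1r, Irs1 and Irs2), no number was skipped between the neighboring listed peaks in the ASC MyoD lists that lacked the peak, which are 6 combinations of a list and a region. Around the Igfbp5 region, 2 of 3 QSC MyoD lists skipped 1 number each, in intervals that spanned 74327 and 93523 kb. An unlisted QSC peak at Igfbp5 therefore cannot be told apart from one elsewhere in those intervals. Around the Igf2r gene, the list of ASC MyoG replicate 2 skipped 2 numbers in an interval of 8708 kb. That of ASC MyoG replicate 1 lacked a listed neighbor to count from. Whether these 2 libraries had an unlisted peak inside Igf2r therefore cannot be told either.

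The genes whose scores over the 12 libraries were most like those of Igfbp5 were Zfp648, Btla and Fos, by Euclidean distance of log10(1 + highest score) among 4383 other genes. Zfp648, a zinc finger gene, scored 119.83, 95.46 and 70.73 in ASC MyoD replicates 1 to 3 (distance 0.0202). Btla, a lymphocyte inhibitory receptor, scored 126.2, 95.24 and 68.2 (distance 0.0284). Fos, an immediate early transcription factor, scored 129.46, 93.94 and 68.08 at a distal region (distance 0.0408). None of the 3 had a peak in the other 9 libraries, and their likeness describes score patterns in shared libraries.

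The wider pathway was read from a list of 72 further genes, those of IGF and insulin signaling with the imprinted neighbor H19. The list was chosen with earlier results of these data known. Of these, 26 had a peak in any library and 46 had none. The share of all protein-coding genes with a peak in any of the 12 lists was not computed, so nothing is read from that count. Consensus regions of ASC MyoD were named for 12 genes, H19 with the region beside Igf2 among them, which is 12 of the 26 listed genes (46.2%, beside 37.0% of all listed genes). Of the 71 that are protein-coding, 11 were named (15.5%, beside 5.95% of all protein-coding genes), and 21 had a peak in any ASC MyoD library (29.6%, beside 10.7%). Shares of pathway genes, here and below, were not tested against those of all genes, and no enrichment is read from them. No pathway gene had a consensus region of ASC MyoG, QSC MyoD or QSC MyoG.

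Counted by role, none of the 2 insulin ligands, the 5 other binding proteins, the 5 proteases of binding proteins or their inhibitors, and the 3 RNA-binding proteins of Igf2 mRNA had a consensus region. Of the 2 receptors on the list, Insr, the insulin receptor, had an exonic region with scores of 58.91 and 50.39 in replicates 1 and 2. Of the 12 adaptors, 2 were named. Sh2b2, an adaptor of the insulin receptor, had an intron 2 region with 259.94, 272.63 and 228.53 (mean 254.0 ± 22.7, SD, n = 3), the highest mean among the regions of these 72 genes that were present in all 3 libraries. Sh2b1 had a promoter region with 69.92 and 108.42 in replicates 1 and 2.

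Downstream of the adaptors, the PI3 kinase regulatory subunit Pik3r3 (1 of 6 PI3 kinase genes) scored 67.59 and 89.09 in replicates 1 and 3 at its 3' UTR. Akt2, the Akt kinase of insulin-responsive tissues, had a promoter region with 72.49 and 67.06 in replicates 1 and 2, and was named alone among 10 kinases. Of 9 genes grouped under the mTOR complex, 2 were named. This group also held Tsc1, Tsc2, Rheb and Eif4ebp1, and Mtor itself was counted among the kinases. Rptor, the scaffold of mTOR complex 1, had an intron 1 region with 187.89, 107.29 and 93.39 (mean 130.0 ± 51.0, SD, n = 3). Deptor, an inhibitor of mTOR, had 3 regions, of which that in intron 1 was present in all 3 libraries (mean 76.0 ± 10.1, SD, n = 3). Its other 2 regions had peaks in 2 libraries each, with scores from 55.2 to 77.33.

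Among 11 inhibitors, only Inppl1, the SH2 domain inositol phosphatase SHIP2, was named, with 56.48, 95.64 and 138.03 at its promoter (mean 96.7 ± 40.8, SD, n = 3). FoxO factors and their targets, which Akt restrains, had 3 of 6 genes named. Foxo6 had an intron 1 region with 158.38, 98.29 and 102.53 (mean 120.0 ± 33.5, SD, n = 3), which was also the only pathway consensus region overlapped by a MyoG peak, in 1 ASC library. A distal Foxo6 region scored 53.01 and 52.33 in replicates 1 and 3. Fbxo32, the muscle ubiquitin ligase atrogin-1, scored 86.44, 131.0 and 61.31 in intron 4 (mean 92.9 ± 35.3, SD, n = 3). Foxo4 scored 68.22, 86.21 and 55.54 at its 3' UTR (mean 70.0 ± 15.4, SD, n = 3). With more MyoD peaks in every ASC than in every QSC library, 7 of 71 protein-coding pathway genes were counted (9.86%), beside 3.78% of all.

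**Figure D5:**
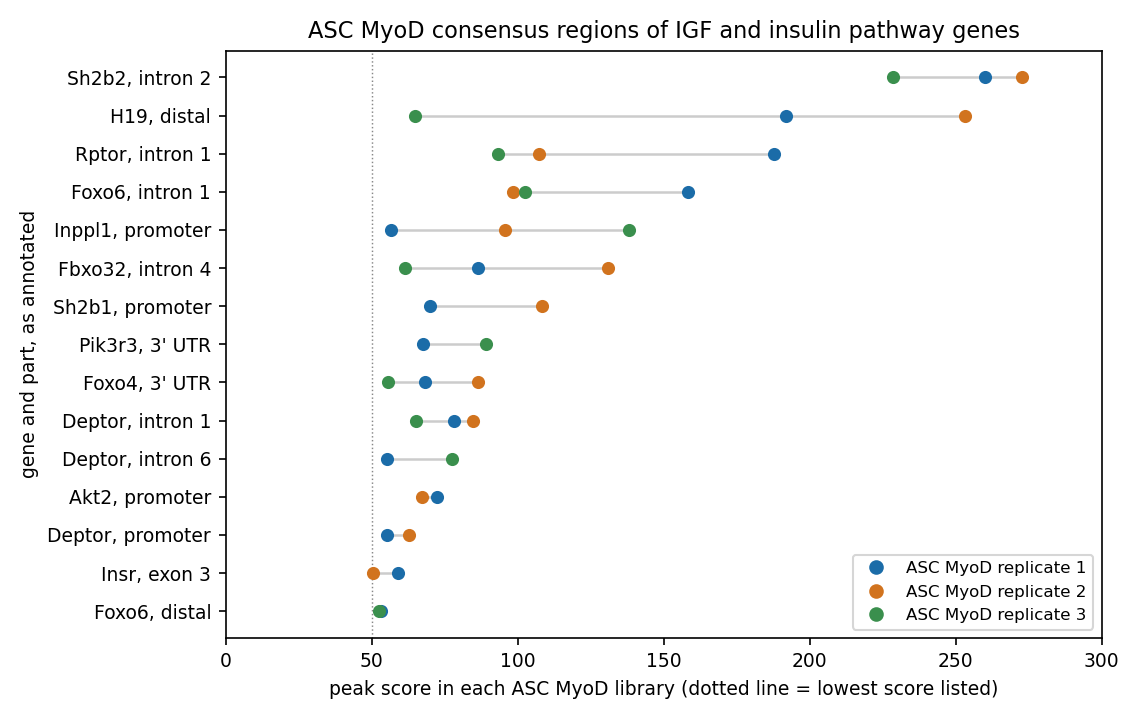
Scores of the 15 ASC MyoD consensus regions named for IGF and insulin pathway genes (rows: gene and annotated part) in each ASC MyoD library, on a linear axis with a dotted line at the lowest listed score. Gray lines join the libraries of a region. Sh2b2 scores 228.53 or higher in all 3 libraries, and the H19 region, between H19 and Igf2, ranges from 64.78 to 253.24.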

How the data were processed

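ChIP-seq peak lists of 12 libraries (MyoD and MyoG in QSCs and ASCs, 3 each) were used, with groups and replicate numbers taken from the sample titles. The submitters' processing notes name BWA 0.7.5, MACS, deepTools 3.5.0 and the build mm10. How the input libraries and further filters were used is not given in the sources used here. The deposited score of each peak is minus 10 times the log10 of its MACS p-value, called by the authors in each library, who also named a gene and a gene part for it. The deposited start and end (unit: other, positions in bp) are printed as given. Scores vary with library depth, which is unknown, so they describe calls and are no measure of occupancy.

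Peaks of a group that overlapped by at least 1 bp were merged, and a consensus region had a peak in at least 2 of 3 libraries. A percentile is the percent of a library's peaks with the same or a lower score. Distances run from a region's center to the nearest RefSeq start site (GRCm38.p6, the assembly of mm10), and from its nearer edge to a gene. All 10 IGF symbols and 4098 of 4384 listed gene names matched RefSeq. Peaks without a gene name (4) stayed in the lists but in no gene count. Numbers of peaks per library were compared by exact two-sided permutation of the 20 relabelings of 3 against 3 libraries. The study calls its ChIP-seq replicates biological, and whether each came from separate animals or pools is not given in the sources used here, so these p-values measure the spread between these libraries. Python 3.11.15 with pandas 2.3.3, numpy 2.4.6 and matplotlib 3.10.9 was used, and merging was tested on simulated peak lists.

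The IGF genes and the 72 pathway genes were chosen with earlier results of these data known. Named items were all peaks of the 10 genes, each pathway gene with a consensus region, and the 3 genes most like a gene with an ASC MyoD consensus region. The alternatives were a score of 80 or more (a p-value of 1e-08), regions found in all 3 or in any 1 library, overlap of at least 50% of both peaks, merging across gaps of up to 500 bp, distal intergenic peaks left out, replicates left out, and a replicate block. Regions within 50 and 100 kb of a start site, within 300 kb of a gene or inside it, under any gene name, were added after the data were seen.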

Additional observations from a re-analysis of the deposited data

How the results depend on the processing

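The count of IGF genes with an ASC MyoD consensus region (1, Igfbp5) was 4 when a peak in at least 1 library sufficed and 0 when distal intergenic peaks were left out, and the count of regions (1) moved to 4 and 0 in the same way. Under any gene name it was 3 within 50 kb and 6 within 100 kb of a start site (beside 10.1% and 18.7% of protein-coding genes) and 8 within 300 kb of a gene span (beside 43.6%), and inside gene spans it was 1, but Igf2r in place of Igfbp5. It was 1 under the other alternatives, from 1 to 1 without each replicate in turn. The counts for ASC MyoG, QSC MyoD and QSC MyoG were 0 under all 9 alternatives run for each. The pathway count of 12 was 6 at a score of 80 or more and 22 with a peak in at least 1 library, and ranged from 8 to 11 without each replicate.

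With the replicate number as a replicate block, the difference at Igfbp5 was 1 peak per library (exact sign-flip test, p-value 0.25, the smallest that 3 pairs allow). No gene passed the threshold with or without the block, so it changed no call. Libraries of a group did not differ at Igfbp5 in either state, so whether the numbers pair the libraries could not be checked there. The differences at Igfbp5 and Irs2 were 0 with distal intergenic peaks left out. Those at Igf1r, Irs1 and Irs2 were 0 without the library that held the peak (replicate 3, 1 and 2), and for Igf1r and Irs2 also at a score of 80 or more. At that score, the difference at Igfbp5 was 0.667 peaks per library (exact permutation test, p-value 0.4), since its peak in replicate 3 scored 68.47. No test was made for MyoG, since no MyoG peak was named for an IGF gene. Depth is unknown, so a missing peak says only that none passed the threshold of its list.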

Other observations

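Taken by position over the 10 genes, 29 different regions lay within 300 kb of a gene. Of these, 28 had an ASC MyoD peak, 14 were ASC MyoD consensus regions and 4 were named for an IGF gene. ASC MyoD libraries supplied 7210 of the 10303 listed peaks, and QSC MyoD and QSC MyoG libraries 484 and 449. The same shares over all regions were not computed, so nothing particular to IGF genes is read from these counts. The 1 region without an ASC MyoD peak was a QSC MyoG peak in replicate 1 with a score of 53.74, 266.9 kb upstream of Igfbp3 and named for Gm11986. It was the only QSC peak within 300 kb of any of the 10 genes, at the 49.2 percentile of its list.

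Several flanking peaks were listed in 1 ASC MyoD library each. Replicate 1 listed a distal peak named for Ccr7, a chemokine receptor gene, 87.2 kb downstream of Igfbp4 (score 50.77). Replicate 3 listed a peak at the promoter of Pgpep1l, 30.0 kb past the end of Igf1r (score 79.53), a distal peak named for 3930402G23Rik 89.0 kb downstream of Irs2 (score 69.62), and a peak named for the microRNA gene Mir6344 312.9 kb downstream of the Irs1 start site (score 61.55).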
